A study of Homo sapiens with 6 samples.

Results

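The collagen genes were taken as every gene whose symbol consists of COL, a type number, A and a chain number, and 42 of the 21134 genes measured met this rule. They comprised 11 fibrillar collagens, 6 basement membrane collagens, 9 FACIT collagens and 16 other collagens. COL22A1 and COL6A5 were not analysed here. RNA was sequenced from cardiomyocytes derived from the stem cell line H9, which the study calls hiPSC-CMs although H9 is a human embryonic stem cell line. There were 2 libraries of untreated cells (control), 2 of cells exposed to 100 mM alcohol for 24 h (alcohol), and 2 of cells given 100 mM alcohol together with 1 μM losartan, a blocker of the angiotensin II type 1 receptor, for 24 h (alcohol plus losartan). The labels and the study's methods describe co-treatment, whereas its results also speak of losartan as a pretreatment. All 6 libraries came from the 1 line, and no source used here says whether the 2 libraries of a group came from separate cultures, so that p-values measure the spread between these libraries, which may be technical.

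Collagens are secreted proteins whose chains wind around each other into a long helix. Fibrillar collagens build the tensile fibers of the interstitium, basement membrane collagens form the sheet around each muscle cell, and FACIT collagens sit on the surface of fibrils. In the heart most fibrillar collagen is made by fibroblasts, while cardiomyocytes lie in a basement membrane of type IV collagen, and excess deposition of collagen stiffens the muscle.

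The libraries held between 4898287 and 5051448 expected counts, where an expected count is an estimate of the reads of a gene. At this depth 3 counts, the limit that a count of 0 allows, correspond to between 0.594 and 0.612 CPM (counts scaled to the library size). Levels are given as FPKM, which is scaled to the length of the gene and so can be compared between genes. The cardiomyocyte marker TNNT2 lay between 3194 and 3728 FPKM. The ventricular light chain MYL2 was 863 FPKM in control replicate 2 and 821 FPKM in alcohol replicate 2, and between 2139 and 2862 FPKM in the other 4 libraries. The fibroblast genes DCN and LUM lay between 4.10 and 7.51 FPKM and between 7.31 and 9.74 FPKM, and the endothelial gene VWF did not exceed 0.11 FPKM. The summed FPKM of the 8 fibroblast markers lay between 65.2 and 76.3 over the 6 libraries. In these bulk libraries, fewer cells of a type and less RNA per cell cannot be told apart.

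To describe the collagen repertoire of these cells, the genes were ordered by their mean FPKM over the 6 libraries. A total of 10 genes reached a mean of 100 FPKM, 7 lay between 10 and 100, 11 between 1 and 10, and 14 below 1. The 10 highest genes held 86.7% of the summed collagen FPKM. COL18A1, which encodes the basement membrane zone collagen that releases endostatin, was first with a mean of 326 FPKM, 17.8% of the collagen total. It was followed by COL5A2 (186 FPKM), COL4A2 (179 FPKM), COL3A1 (167 FPKM) and COL1A1 (135 FPKM). The next places were taken by COL21A1 (131 FPKM), COL4A5 (122 FPKM), COL2A1 (117 FPKM), COL1A2 (111 FPKM) and COL4A1 (111 FPKM). The ranges of neighbours in this order overlapped from COL5A2 onward among these 10 genes, and only COL18A1 had its lowest library, 245 FPKM, above the highest library of the next gene, 227 FPKM.

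**Figure D1:**
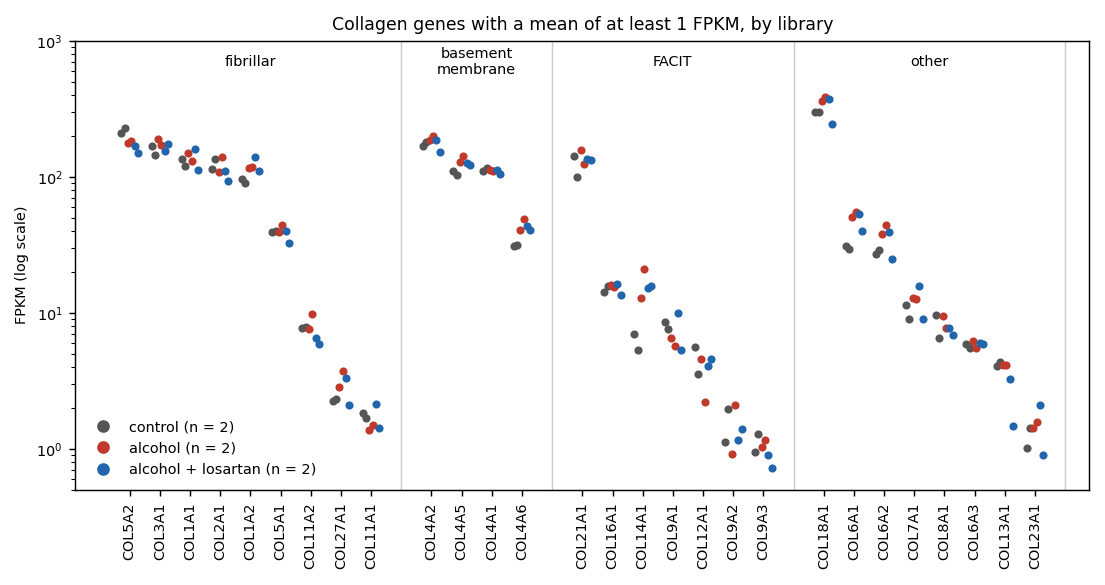
FPKM on a log scale of the 28 collagen genes with a mean of at least 1 FPKM, grouped by class. Each point is 1 library, colored by group with 2 libraries each. COL18A1 is the highest gene in every library, and the COL14A1 points of the 4 alcohol-exposed libraries lie above both control points.

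The type IV chains differed in level. COL4A1 and COL4A2, the chains of the ubiquitous type IV network, lay between 105 and 116 FPKM and between 153 and 200 FPKM. COL4A5 and COL4A6, which in other tissues form a network of their own in smooth muscle and epithelial basement membranes, lay between 103 and 142 FPKM and between 30.9 and 49.3 FPKM. COL4A3, a chain of the glomerular basement membrane, was listed at 0 in 4 libraries and did not exceed 0.05 FPKM, while COL4A4 did not exceed 0.26 FPKM. The FPKM ratio of COL4A5 to COL4A1 was 1.00 and 0.886 in the control libraries, 1.15 and 1.29 in the alcohol libraries, and 1.12 and 1.16 in the alcohol plus losartan libraries. The ratio was thus higher in each of the 4 alcohol-exposed libraries than in either control library.

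Type IV genes lie in pairs that are read away from each other, so that both members of a pair share the sequence between their starts. According to the RefSeq annotation of GRCh38.p14, 126 bases separate the starts of COL4A1 (chr13:110148963-110307157, minus strand) and COL4A2 (chr13:110307284-110513209, plus strand). COL4A6 (chrX:108155614-108439458, minus strand) and COL4A5 (chrX:108439838-108697545, plus strand) are separated by 379 bases between their outermost starts. Below are the interval between COL4A1 and COL4A2 (chr13:110307158-110307283), the 250 bases before COL4A5 (chrX:108439588-108439837) and the 250 bases before COL6A2 (chr21:46097862-46098111), shown because they stand before chains of type IV and type VI collagen, whose genes lie next to their partner chains. All are plus strand reference sequence, and capitals mark the CCAAT box (CCAAT or ATTGG), the GC box (GGGCGG or CCGCCC) and the TATA box (TATAAA or TTTATA), each searched on both strands.
COL4A1 and COL4A2: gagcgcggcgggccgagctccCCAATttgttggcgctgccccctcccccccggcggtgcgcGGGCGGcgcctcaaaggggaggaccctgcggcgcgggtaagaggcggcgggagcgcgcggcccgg
COL4A5: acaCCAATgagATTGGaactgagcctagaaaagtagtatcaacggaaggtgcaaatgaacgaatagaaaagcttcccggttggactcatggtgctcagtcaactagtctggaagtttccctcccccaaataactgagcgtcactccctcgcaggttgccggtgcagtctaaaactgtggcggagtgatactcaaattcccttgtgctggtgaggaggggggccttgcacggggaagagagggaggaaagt
COL6A2: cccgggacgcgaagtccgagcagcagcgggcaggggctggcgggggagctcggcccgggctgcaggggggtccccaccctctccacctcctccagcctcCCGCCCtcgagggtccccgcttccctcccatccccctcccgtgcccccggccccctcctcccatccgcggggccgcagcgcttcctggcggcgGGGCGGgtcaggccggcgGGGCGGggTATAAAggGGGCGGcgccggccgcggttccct
The sequence shared by COL4A1 and COL4A2 holds 1 CCAAT box and 1 GC box at a GC content of 80.2%. The sequence before COL4A5 holds 2 CCAAT boxes and no GC box at a GC content of 51.2%. The sequence before COL6A2 holds 4 GC boxes, among them 1 on either side of its 1 TATA box, at a GC content of 79.6%. Promoter windows running from 250 bases before to 50 bases after a start were at hand for 32 of the 42 collagen genes, 44 windows in all. A CCAAT box was found in 14 of the 44 windows, against 34.6% of all 35116 windows. A GC box was found in 24 windows, against 45.0% of all windows, and a TATA box in 8 windows, against 11.5%. A match of these letters is a description of the sequence and does not show that a factor binds there.

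Fibrillar and other chains also differed within a type. The FPKM ratio of COL1A1 to COL1A2, the chains of type I collagen, was 1.41 and 1.33 in the control libraries, 1.29 and 1.12 in the alcohol libraries, and 1.15 and 1.03 in the alcohol plus losartan libraries. In each of the 4 alcohol-exposed libraries it was below both control libraries. COL5A2, a chain of the type V collagen that regulates fibril width, stood at 5.37 and 5.70 times the FPKM of COL5A1 in the control libraries, 4.49 and 4.15 times in the alcohol libraries, and 4.20 and 4.60 times in the alcohol plus losartan libraries. COL6A1, a chain of the beaded filaments of type VI collagen, stood at 5.18 and 5.31 times the FPKM of COL6A3 in the control libraries, 8.19 and 9.99 times in the alcohol libraries, and 8.98 and 6.81 times in the alcohol plus losartan libraries. For both pairs the control libraries did not overlap with the 4 others. The length that the authors' program assigned to COL6A3 differed between libraries, whereas that of COL6A1 was equal in all of them, and the part of this in the ratio was not tested. The ratio of COL4A1 to COL4A2 overlapped, with 0.663 and 0.641 in controls. It was 0.599 and 0.55 in alcohol, and 0.605 and 0.685 in alcohol plus losartan. Ratios of COL2A1 to COL11A1 and COL11A2 overlapped too. Those of COL4A5 to COL4A6, COL6A1 to COL6A2 and COL3A1 to COL5A2 did not. The share of all gene pairs that separate in this way was not determined.

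COL2A1, the main collagen of cartilage, lay between 92.8 and 141 FPKM, and its partner COL11A2 between 5.84 and 9.86 FPKM. Of the chondrocyte markers, the transcription factor SOX9 lay between 2.29 and 3.68 FPKM, COMP was at 0 in 5 of the 6 libraries and MATN1 did not exceed 0.32 FPKM. HAPLN1, another marker of this list, was higher than these, between 6.01 and 13.0 FPKM. Among the low collagens, COL10A1, COL15A1, COL8A2, COL4A3 and COL20A1 were at 0 in at least 1 library. COL26A1, COL24A1, COL28A1, COL6A6 and COL5A3 were found in each library but also failed the filter on low counts, so that 32 of the 42 collagen genes were tested. The strand setting of the counting is not given in the sources used here, and 7 of the 42 genes overlap another measured gene, so that reads of overlapping genes may have been mixed. These are COL18A1 (with COL18A1-AS1, COL18A1-AS2 and SLC19A1), COL4A2 (with COL4A2-AS1 and COL4A2-AS2), COL5A1, COL9A3, COL10A1, COL4A3 and COL4A4.

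The summed level of all collagens was examined next. It was 1764 and 1720 FPKM in the control libraries, 1937 and 1995 FPKM in the alcohol libraries, and 1937 and 1610 FPKM in the alcohol plus losartan libraries. Both alcohol libraries were above both control libraries, and the alcohol plus losartan libraries lay on either side of the controls. The mean sum was 1742 ± 30.9 FPKM (SD, n = 2) in controls, 1966 ± 40.6 FPKM in alcohol and 1773 ± 231 FPKM in alcohol plus losartan. The ratio of the means was 1.13 for alcohol against control, 0.902 for alcohol plus losartan against alcohol, and 1.02 for alcohol plus losartan against control. Without alcohol plus losartan replicate 2 the latter 2 ratios were 0.985 and 1.11. An exact permutation test of 2 libraries against 2, two-sided, cannot go below p = 0.333, and the sums are given without a test.

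By class, the sum of the other collagens was 390 and 386 FPKM in controls, 483 and 519 FPKM in alcohol, and 501 and 336 FPKM in alcohol plus losartan. Most of this sum was COL18A1 alone, with 298 and 299 FPKM in controls and 358 and 385 FPKM in alcohol. In alcohol plus losartan COL18A1 held 372 and 245 FPKM. The sum of the basement membrane collagens was 420 and 431 FPKM in controls, 468 and 501 FPKM in alcohol, and 468 and 420 FPKM in alcohol plus losartan. For both classes the alcohol libraries were above the controls. Alcohol plus losartan replicate 2 was below both controls in the other collagens and level with the lower control in the basement membrane collagens. The fibrillar collagens summed to 774 and 769 FPKM in controls, 789 and 804 FPKM in alcohol, and 785 and 680 FPKM in alcohol plus losartan. The FACIT collagens, with COL21A1 as the most abundant, summed to between 135 and 199 FPKM, with overlapping control and alcohol libraries.

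**Figure D2:**
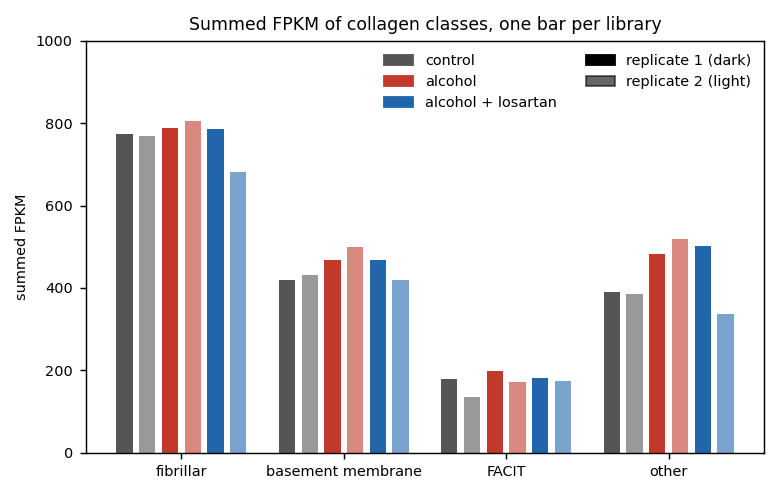
Summed FPKM of each collagen class, 1 bar per library on an axis starting at 0, with replicate 1 dark and replicate 2 light. The alcohol plus losartan replicate 2 bar is the lowest of its class for the other collagens (336 FPKM) and the fibrillar collagens (680 FPKM). COL18A1 alone holds 245 of these 336 FPKM and is most of each bar of the other collagens.

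Alcohol plus losartan replicate 2 stood apart in its collagens. Of the 32 tested genes, 26 were lower in CPM in replicate 2 than in replicate 1 of that group, with a median log2 difference of -0.266, while 53.9% of all genes were lower with a median of -0.032. In controls 15 of the 32 collagen genes and in alcohol 13 of the 32 were lower in replicate 2. COL18A1 showed the spread, with 298 and 299 FPKM in controls, 358 and 385 FPKM in alcohol, and 372 and 245 FPKM in alcohol plus losartan. Counts over the collagen genes that involve alcohol plus losartan, and the single collagen values that moved most, are therefore also given without it.

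To find out which collagen genes alcohol changed, the alcohol libraries were compared with the controls by edgeR's quasi-likelihood test with Benjamini-Hochberg adjustment over all 14926 genes tested. COL14A1 was the 1 collagen gene that passed an adjusted p of 0.05, in a comparison in which 0.067% of all genes tested did so (10 genes). Of the 32 collagen genes 22 had a higher fitted level in alcohol and 10 a lower one, 68.8% higher against 49.4% of all genes. Their median log2 fold change was 0.11, against -0.0033 for the whole table. A total of 6 collagen genes were higher at an unadjusted p under 0.05 (18.8%, against 5.27% of all genes) and 1 was lower (3.12%, against 5.78% of all genes). The other collagens were higher in 9 of 10 tested genes with a median of 0.21, the basement membrane collagens in 4 of 5 with a median of 0.30, the fibrillar collagens in 6 of 9 with a median of 0.10, and the FACIT collagens in 3 of 8 with a median of -0.080.

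COL14A1, which encodes a FACIT collagen that binds fibrils and regulates their diameter, was 6.94 and 5.32 FPKM in controls, 12.8 and 20.9 FPKM in alcohol, and 15.1 and 15.8 FPKM in alcohol plus losartan. All 4 alcohol-exposed libraries were above both controls, and the alcohol plus losartan libraries lay between the alcohol libraries. In alcohol it rose by 1.41 ± 0.20 on the log2 scale (fit and SE, adjusted p = 0.0247 by edgeR). In alcohol plus losartan against control it rose by 1.28 ± 0.20 (adjusted p = 0.0203 by edgeR). Between alcohol plus losartan and alcohol the log2 difference was -0.13 ± 0.18 (adjusted p = 0.962 by edgeR). Over 16 alternative settings the log2 fold change in alcohol stayed between 1.06 and 1.70, with adjusted p from 1.18e-06 to 0.162, and the call was lost in 8 of them. It was lost in limma on log2(FPKM + 1) (adjusted p = 0.162), without control replicate 2 (0.0569), without alcohol replicate 2 (0.119), without alcohol plus losartan replicate 1 (0.133) and without alcohol plus losartan replicate 2 (0.113), among others. The call against control in alcohol plus losartan was lost in 6 of 16 settings, among them without control replicate 2 (0.0683) and without alcohol plus losartan replicates 1 (0.130) or 2 (0.319).

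Other FACIT genes did not share the values of COL14A1. COL12A1, a related FACIT gene, was 5.57 and 3.54 FPKM in controls, 4.58 and 2.19 FPKM in alcohol, and 4.08 and 4.58 FPKM in alcohol plus losartan. COL21A1 was 142 and 99.0 FPKM in controls, 156 and 123 FPKM in alcohol, and 135 and 133 FPKM in alcohol plus losartan. COL16A1 lay between 13.4 and 16.2 FPKM in all libraries. For each of these genes the groups overlapped.

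**Figure D3:**
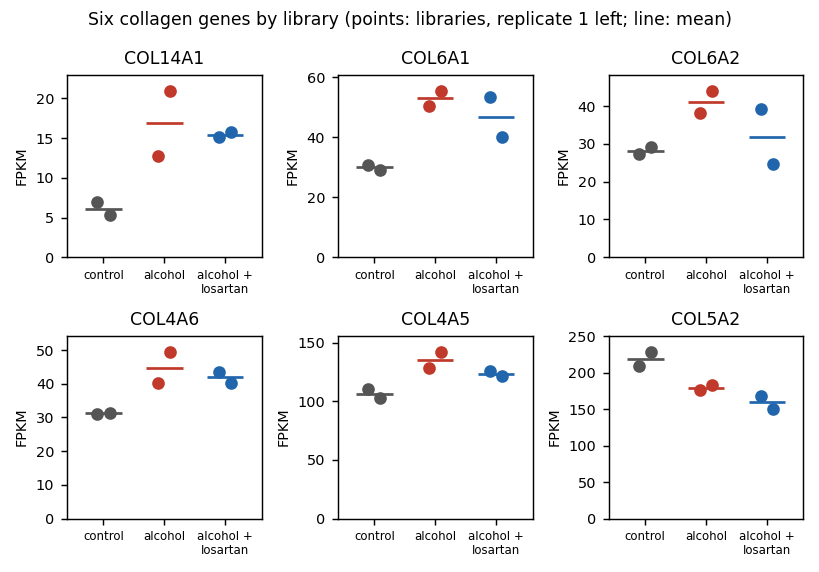
FPKM of 6 collagen genes on axes starting at 0, with 1 point per library (replicate 1 on the left) and a line at the mean of 2 libraries. For COL14A1, COL6A1, COL4A6 and COL4A5 both alcohol libraries and both alcohol plus losartan libraries lie above both controls, and for COL5A2 they lie below, while COL6A2 falls to 24.6 FPKM in alcohol plus losartan replicate 2.

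The type VI genes came next by p. COL6A1 was 30.7 and 29.2 FPKM in controls, 50.5 and 55.3 FPKM in alcohol, and 53.3 and 40.2 FPKM in alcohol plus losartan. All 4 alcohol-exposed libraries were above both controls. The log2 fold change in alcohol was 0.78 ± 0.14 with an adjusted p of 0.0547 by edgeR, which missed the threshold. It passed in 6 of 16 alternative settings, among them DESeq2 (adjusted p = 0.000418), the fit with the replicate number as a block (0.0260) and the fit without alcohol replicate 1 (0.0256). COL6A2, the partner chain whose gene neighbours COL6A1 on chromosome 21, was 27.2 and 29.1 FPKM in controls, 38.2 and 43.9 FPKM in alcohol, and 39.1 and 24.6 FPKM in alcohol plus losartan. Both alcohol libraries were above the controls, and the alcohol plus losartan libraries lay on either side. Its log2 fold change in alcohol was 0.51 ± 0.17 (adjusted p = 0.272 by edgeR). COL6A3, which encodes the longest chain of type VI collagen, lay between 5.50 and 6.16 FPKM in all libraries.

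Among the basement membrane genes, COL4A6 was 30.9 and 31.4 FPKM in controls, 40.3 and 49.3 FPKM in alcohol, and 43.6 and 40.4 FPKM in alcohol plus losartan. COL4A5 was 111 and 103 FPKM in controls, 129 and 142 FPKM in alcohol, and 126 and 121 FPKM in alcohol plus losartan. For both genes the 4 alcohol-exposed libraries did not overlap with the controls. The log2 fold change in alcohol was 0.48 ± 0.12 for COL4A6 (adjusted p = 0.152 by edgeR) and 0.30 ± 0.12 for COL4A5 (adjusted p = 0.380). COL4A6 passed the threshold in DESeq2 (adjusted p = 0.0343) and without alcohol replicate 1 (adjusted p = 0.0481). COL4A1 had a log2 fold change of -0.07 ± 0.12 in alcohol (adjusted p = 0.884 by edgeR), with 111 and 116 FPKM in controls, 112 and 110 FPKM in alcohol, and 112 and 105 FPKM in alcohol plus losartan.

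Of the fibrillar genes, COL5A2 was 209 and 227 FPKM in controls, 176 and 183 FPKM in alcohol, and 168 and 150.1 FPKM in alcohol plus losartan. All 4 alcohol-exposed libraries were below both controls. Its log2 fold change was -0.32 ± 0.12 in alcohol (adjusted p = 0.353 by edgeR) and -0.50 ± 0.12 in alcohol plus losartan against control (adjusted p = 0.101). COL27A1, a fibrillar collagen of developing cartilage, was 2.23 and 2.31 FPKM in controls, 2.83 and 3.72 FPKM in alcohol, and 3.31 and 2.09 FPKM in alcohol plus losartan. Its log2 fold change in alcohol was 0.48 ± 0.22 (adjusted p = 0.449 by edgeR).

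The main interstitial collagens had small differences in alcohol. COL1A1 was 136 and 119 FPKM in controls, 149 and 131 FPKM in alcohol, and 160 and 112 FPKM in alcohol plus losartan. Its groups overlapped, and its log2 fold change was 0.10 ± 0.16 in alcohol (adjusted p = 0.871 by edgeR), a value that turned to -0.023 without alcohol replicate 1. COL3A1 was 168 and 145 FPKM in controls, 188 and 172 FPKM in alcohol, and 155 and 174 FPKM in alcohol plus losartan, with a log2 fold change of 0.17 ± 0.14 in alcohol (adjusted p = 0.721 by edgeR). COL1A2 was 96.6 and 89.5 FPKM in controls, 116 and 117 FPKM in alcohol, and 140 and 109 FPKM in alcohol plus losartan. Its 4 alcohol-exposed libraries were above both controls, and its log2 fold change in alcohol plus losartan against control was 0.37 ± 0.14 (adjusted p = 0.265 by edgeR).

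**Figure D4:**
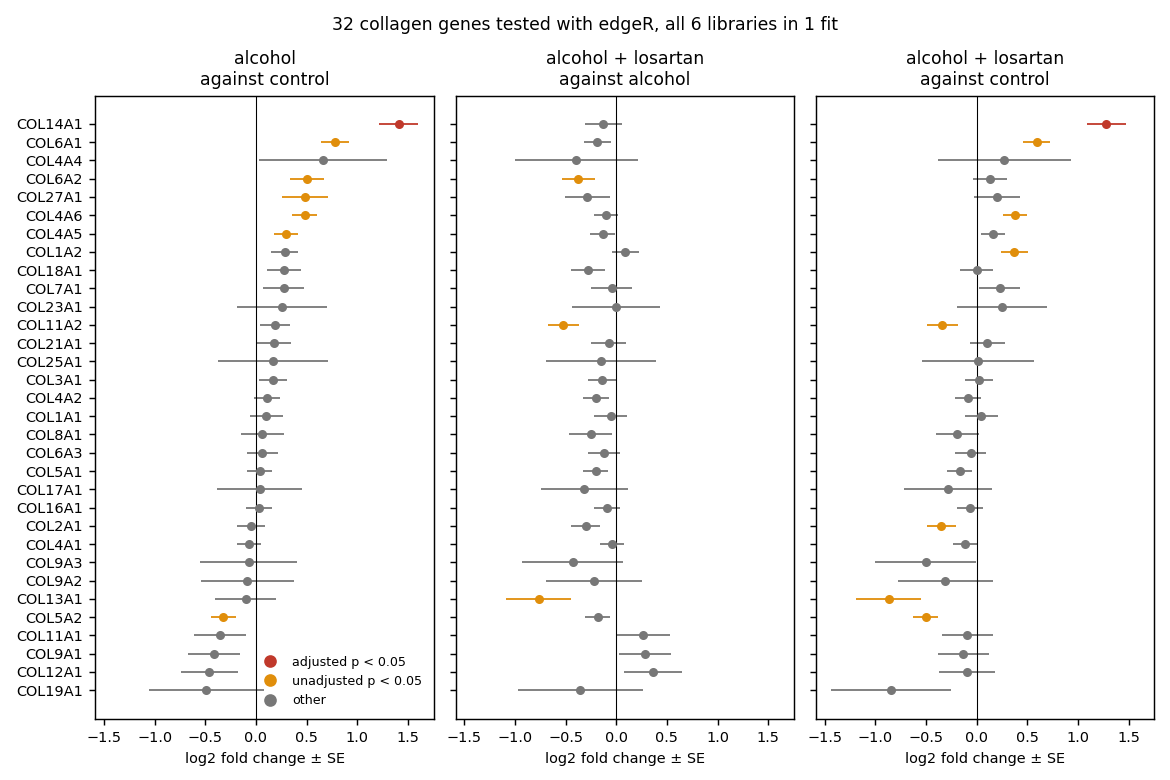
Log2 fold change with its SE of the 32 tested collagen genes in the 3 comparisons, from 1 edgeR fit of all 6 libraries, ordered by the fold change in alcohol against control. Red marks an adjusted p under 0.05, orange an unadjusted p under 0.05 and gray the rest. COL14A1 is the 1 red point in each of the outer panels, and in the middle panel 28 of the 32 points lie below 0.

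To examine whether losartan changed collagen expression under alcohol, alcohol plus losartan was compared with alcohol. The alcohol libraries are shared with the comparison of alcohol against control. A stray value in them moves the fold changes of the 2 comparisons in opposite directions. No collagen gene passed the adjusted threshold by edgeR, in a comparison in which 0.0134% of all genes did so (2 genes), and none did in any of the other settings run, DESeq2 among them. Of the 32 collagen genes 28 were lower and 4 higher, 12.5% higher against 50.3% of all genes, with a median log2 fold change of -0.17 against 0.0023. At an unadjusted p under 0.05, 3 were lower (9.38%, against 2.71% of all genes) and 0 were higher (against 2.84% of all genes). All 10 tested genes among the other collagens and all 5 tested basement membrane genes were lower, with medians of -0.22 and -0.13, and 7 of 9 fibrillar and 6 of 8 FACIT genes were lower too. Without alcohol plus losartan replicate 2 the count was 23 lower and 9 higher, with 1 lower and 1 higher at an unadjusted p under 0.05, and without replicate 1 of that group it was 31 lower and 1 higher. The median over these 32 genes was -0.079 without alcohol plus losartan replicate 2 and -0.28 without replicate 1, and with an offset for gene length and GC content it was -0.10.

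The 3 genes with an unadjusted p under 0.05 came from different classes. COL11A2, a minor fibrillar chain, was 7.58 and 9.86 FPKM in alcohol and 6.56 and 5.84 FPKM in alcohol plus losartan, with 7.73 and 7.79 FPKM in controls. Its log2 fold change against alcohol was -0.52 ± 0.15 (adjusted p = 0.722 by edgeR). COL13A1, a transmembrane collagen, was 4.12 and 4.11 FPKM in alcohol and 3.25 and 1.48 FPKM in alcohol plus losartan, with 4.03 and 4.31 FPKM in controls, a log2 fold change of -0.77 ± 0.32 (adjusted p = 0.882 by edgeR). In both genes the alcohol plus losartan libraries were below all 4 others. COL6A2 had a log2 fold change of -0.37 ± 0.17 (adjusted p = 0.896 by edgeR). Alcohol plus losartan replicate 2 weighed on both COL6A2 and COL13A1, whose log2 fold changes were -0.096 and -0.31 without it, while over the 16 settings they ranged from -0.72 to -0.096 and from -1.44 to -0.31. Between alcohol plus losartan and alcohol the log2 difference was -0.06 ± 0.16 for COL1A1 (adjusted p = 0.982 by edgeR), -0.14 ± 0.14 for COL3A1 (adjusted p = 0.952) and -0.04 ± 0.12 for COL4A1 (adjusted p = 0.978). Without alcohol plus losartan replicate 2 these differences were 0.16, -0.24 and -0.0075.

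Alcohol plus losartan was also compared with control, which shares its control libraries with the alcohol comparison. COL14A1 was again the 1 collagen gene called, where 0.362% of all genes were (54 genes). The collagen genes were split into 14 higher and 18 lower, 43.8% higher against 49.8% of all genes, with a median log2 fold change of -0.060 against -0.0017. At an unadjusted p under 0.05, 4 were higher (12.5%, against 6.26% of all genes) and 4 were lower (12.5%, against 6.37% of all genes). COL6A1 had a log2 fold change of 0.59 ± 0.14 (adjusted p = 0.0833 by edgeR) and COL4A6 one of 0.38 ± 0.12 (adjusted p = 0.200). COL6A1 passed the threshold with DESeq2 (adjusted p = 0.0287) and with the offset for gene length and GC content (adjusted p = 0.0252). On the lower side, COL13A1 had a log2 fold change of -0.87 ± 0.32 (adjusted p = 0.276 by edgeR), COL2A1 one of -0.35 ± 0.14 (adjusted p = 0.327) and COL11A2 one of -0.34 ± 0.15 (adjusted p = 0.383), and COL5A2 was called by DESeq2 (adjusted p = 0.00187). COL2A1 was 114 and 136 FPKM in controls, 109 and 141 FPKM in alcohol, and 110 and 92.8 FPKM in alcohol plus losartan. For COL1A1, COL3A1 and COL4A1 the log2 fold changes were 0.05 ± 0.16 (adjusted p = 0.942 by edgeR), 0.02 ± 0.14 (adjusted p = 0.965) and -0.11 ± 0.12 (adjusted p = 0.755), and without alcohol plus losartan replicate 2 they were 0.27, -0.078 and -0.076. Without alcohol plus losartan replicate 2 the log2 fold change of COL13A1 was -0.41 and that of COL2A1 -0.24, and the count was 17 higher and 15 lower, with 6 higher and 1 lower at an unadjusted p under 0.05, and without replicate 1 of that group it was 9 higher and 23 lower.

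Across both exposures, 5 of the 32 tested collagen genes had all 4 alcohol-exposed libraries above both controls in CPM, namely COL14A1, COL1A2, COL4A5, COL4A6 and COL6A1. This was 15.6%, against 15.1% of all genes. COL5A2 was the 1 gene with all 4 libraries below both controls (3.1%, against 8.54% of all genes). The share above the controls was thus near that of all genes.

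The enzymes that hydroxylate, glycosylate and fold procollagen in the endoplasmic reticulum were examined as the collagen genes' partners. In alcohol 4 of the 16 tested were higher and 12 lower, with a median log2 fold change of -0.19 (75% lower, against 50.6% of all genes). In alcohol plus losartan against alcohol 6 were higher and 10 lower (62.5%, against 49.7% of all genes) with a median of -0.054, which became 9 higher and 7 lower without alcohol plus losartan replicate 2. With all 6 libraries 0 passed the adjusted threshold in any of the 3 comparisons by edgeR, DESeq2 or limma on log2(FPKM + 1). At an unadjusted p under 0.05, 2 were higher (COLGALT2 and CRTAP, 12.5% against 5.27% of all genes) and 2 lower (P4HA2 and PLOD2, 12.5% against 5.78%) in alcohol. Against alcohol, 3 were higher (P4HA2, P4HA1 and PLOD2, 18.8% against 2.84% of all genes) when losartan was added. Against control 1 was higher (CRTAP, 6.25% against 6.26%) and 3 were lower (SERPINH1, COLGALT1 and FKBP10, 18.8% against 6.37%), and without alcohol plus losartan replicate 2 these counts were 0 and 0. The edgeR fit without alcohol replicate 1 called P4HA2 (log2 fold change -1.28, adjusted p = 0.0221) and COLGALT2 (0.75, adjusted p = 0.0259) in alcohol and P4HA1 (1.16, adjusted p = 0.0389) in alcohol plus losartan against alcohol. P4HA2, a subunit of prolyl 4-hydroxylase, was 31.9 and 21.6 FPKM in controls, 18.6 and 11.4 FPKM in alcohol, and 26.7 and 30.5 FPKM in alcohol plus losartan. Its log2 fold change was -0.86 ± 0.23 in alcohol (adjusted p = 0.179 by edgeR) and 0.90 ± 0.23 in alcohol plus losartan against alcohol (adjusted p = 0.587). Its paralog P4HA1 was 32.6 and 24.5 FPKM in controls, 26.3 and 16.5 FPKM in alcohol, and 36.6 and 36.1 FPKM in alcohol plus losartan. The log2 fold change of P4HA1 against alcohol was 0.75 ± 0.20 (adjusted p = 0.646 by edgeR).

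PLOD2, which hydroxylates lysines of the telopeptides, was 35.0 and 30.3 FPKM in controls, 29.7 and 24.6 FPKM in alcohol, and 34.2 and 35.0 FPKM in alcohol plus losartan. For P4HA2, P4HA1 and PLOD2 both alcohol libraries were below both alcohol plus losartan libraries. The comparisons of alcohol with control and with alcohol plus losartan share the alcohol libraries, so opposite fold changes in them are not independent. PLOD2 had a log2 fold change of -0.30 ± 0.14 in alcohol (adjusted p = 0.449 by edgeR) and of 0.33 ± 0.14 against alcohol when losartan was added (adjusted p = 0.881). COLGALT2, a collagen galactosyltransferase, was 14.3 and 13.5 FPKM in controls, 16.9 and 24.7 FPKM in alcohol, and 16.5 and 17.9 FPKM in alcohol plus losartan, with a log2 fold change of 0.54 ± 0.15 in alcohol (adjusted p = 0.179 by edgeR). In alcohol plus losartan against control, SERPINH1, the collagen chaperone HSP47, had a log2 fold change of -0.37 ± 0.13 (adjusted p = 0.256 by edgeR), and its libraries lay between 114 and 133 FPKM in controls and between 89.7 and 109 FPKM in alcohol plus losartan.

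Enzymes that trim procollagen and crosslink fibrils outside the cell were lower in 7 of 13 tested genes in alcohol (53.8%, against 50.6% of all genes), in 8 of 13 in alcohol plus losartan against alcohol (61.5%, against 49.7%), and in 11 of 13 in alcohol plus losartan against control (84.6%, against 50.2%). By edgeR, DESeq2 and limma on log2(FPKM + 1) 0 of them were called, and at an unadjusted p under 0.05 the lower ones numbered 2 (LOX and LOXL2, 15.4% against 5.78% of all genes), 1 (BMP1, 7.69% against 2.71%) and 2 (LOXL1 and BMP1, 15.4% against 6.37%). LOX, lysyl oxidase, was 3.31 and 3.96 FPKM in controls, 2.69 and 1.70 FPKM in alcohol, and 2.77 and 2.90 FPKM in alcohol plus losartan, with a log2 fold change of -0.74 ± 0.25 in alcohol (adjusted p = 0.288 by edgeR). LOXL1, a related oxidase of elastic fibers, was 16.1 and 18.7 FPKM in controls, 14.8 and 13.4 FPKM in alcohol, and 12.8 and 8.89 FPKM in alcohol plus losartan, with a log2 fold change of -0.73 ± 0.19 for alcohol plus losartan against control (adjusted p = 0.114 by edgeR). For both genes all 4 alcohol-exposed libraries were below both controls. BMP1, the procollagen C-proteinase, had a log2 fold change of -0.47 ± 0.14 in the same comparison (adjusted p = 0.171 by edgeR).

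**Figure D5:**
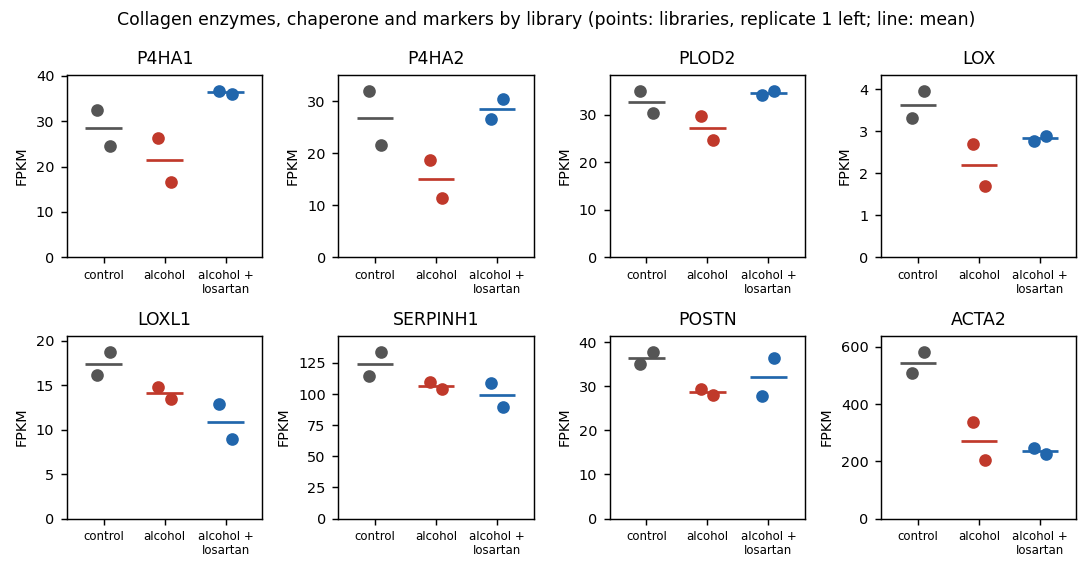
FPKM of collagen-modifying genes (P4HA1, P4HA2, PLOD2), lysyl oxidases (LOX, LOXL1), the chaperone SERPINH1 and the markers POSTN and ACTA2, on axes starting at 0, with 1 point per library (replicate 1 on the left) and a line at the mean of 2 libraries. P4HA1 and P4HA2 are lowest in alcohol replicate 2 (16.5 and 11.4 FPKM), and all 4 alcohol-exposed libraries lie below both controls for LOX, LOXL1 and ACTA2.

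Receptors, fibril-bound proteins and ligands of the matrix pathway gave 0 calls at the adjusted threshold by edgeR in the 3 comparisons and 0 by limma on log2(FPKM + 1), while DESeq2 called FN1 in alcohol plus losartan against control. Among the collagen receptors, ITGA10, an integrin chain that binds collagen, was 0.69 and 0.99 FPKM in controls, 1.37 and 2.96 FPKM in alcohol, and 0.83 and 0.93 FPKM in alcohol plus losartan. Both alcohol libraries were above the 4 others, with a log2 fold change of 1.37 ± 0.38 in alcohol (adjusted p = 0.188 by edgeR) and -1.33 ± 0.38 when losartan was added (adjusted p = 0.722). These 2 fold changes of ITGA10 share the alcohol libraries, so their opposite signs are not independent. Of the 10 receptors tested, 4 were lower at an unadjusted p under 0.05 in alcohol plus losartan against alcohol, namely ITGA10, ITGA2, MRC2 and DDR1 (40%, against 2.71% of all genes), and 2 without alcohol plus losartan replicate 2. ITGA10 in alcohol was called by the edgeR fit without alcohol replicate 1 (log2 fold change 1.81, adjusted p = 0.0296) and ranged from 0.74 to 1.81 over the settings. Of the 9 fibril-bound proteins tested, FMOD and PRELP were higher at an unadjusted p under 0.05 in alcohol (22.2%, against 5.27% of all genes), and FN1, fibronectin, was lower in alcohol plus losartan against control (11.1%, against 6.37%).

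Of 7 tested genes of the TGF-beta list, a set of ligands and factors that drive collagen synthesis, 6 were lower in alcohol, 7 in alcohol plus losartan against alcohol, and 7 in alcohol plus losartan against control, with medians of -0.25, -0.34 and -0.40. Over all genes 50.6%, 49.7% and 50.2% were lower. Without alcohol replicate 1 the second of these comparisons gave 3 lower and 4 higher with a median of 0.23. At an unadjusted p under 0.05, 0, 1 (TGFB2) and 3 (TGFB2, THBS1 and TGFB3) were lower in these comparisons, or 0%, 14.3% and 42.9% against 5.78%, 2.71% and 6.37% of all genes, and the last count was 1 without alcohol plus losartan replicate 2. TGFB2, a ligand of the family, was 31.4 and 29.4 FPKM in controls, 26.2 and 32.1 FPKM in alcohol, and 21.9 and 23.6 FPKM in alcohol plus losartan. Both alcohol plus losartan libraries were below the 4 others, with a log2 fold change of -0.46 ± 0.12 against control (adjusted p = 0.127 by edgeR) and of -0.36 ± 0.12 against alcohol (adjusted p = 0.836). Against control it was called with the replicate block and the offset together (adjusted p = 0.0393). AGTR1, which encodes the receptor blocked by losartan, was at 0 in 4 libraries and did not exceed 0.18 FPKM in the others.

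Markers of other cell types that make collagen moved as follows. Of the 6 mural and smooth muscle markers, 6 were lower in alcohol (100%, against 50.6% of all genes), with a median log2 fold change of -0.54. In alcohol plus losartan against control 6 of 6 were lower (100%, against 50.2% of all genes), with a median of -0.60. Their summed FPKM was 2005 and 1781 in controls, 1516 and 795 in alcohol, and 1041 and 1103 in alcohol plus losartan, with no marker at 0. Among these markers CNN1 overlapped, with 417 and 279 FPKM in controls and 422 and 177 FPKM in alcohol. ACTA2, smooth muscle actin, was 507 and 580.2 FPKM in controls, 337 and 203 FPKM in alcohol, and 248 and 224 FPKM in alcohol plus losartan. It fell by 1.25 ± 0.20 on the log2 scale in alcohol plus losartan against control (adjusted p = 0.0203 by edgeR), a call that was lost without alcohol plus losartan replicate 1 (adjusted p = 0.157) or 2 (adjusted p = 0.349), and its log2 fold change in alcohol was -1.04 ± 0.20 (adjusted p = 0.0797), which passed in 5 of 16 settings, among them the replicate block (adjusted p = 0.0297) and the fit without alcohol replicate 1 (adjusted p = 0.000372). DESeq2 also called RGS5, a pericyte marker, in alcohol plus losartan against control (adjusted p = 0.0305). Embryonic cardiomyocytes also express ACTA2.

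The 8 fibroblast markers summed to 69.8 and 73.1 FPKM in controls, 65.6 and 65.2 FPKM in alcohol, and 66.6 and 76.3 FPKM in alcohol plus losartan. POSTN, a matrix protein of activated fibroblasts, was 35.1 and 37.7 FPKM in controls, 29.4 and 28.0 FPKM in alcohol, and 27.8 and 36.5 FPKM in alcohol plus losartan. THY1 lay between 0.57 and 1.91 FPKM and PDGFRA between 13.6 and 19.7 FPKM. By gene, 4 of the 6 tested fibroblast markers were lower in alcohol (66.7%, against 50.6% of all genes). In alcohol plus losartan against control 3 of the 6 were lower (50%, against 50.2%). The 12 cardiomyocyte markers summed to 30494 and 31054 FPKM in controls, 29154 and 22056 FPKM in alcohol, and 24880 and 27555 FPKM in alcohol plus losartan. All 4 alcohol-exposed libraries were below both controls in this sum. MYL7 was its largest part, with 14512 and 16180 FPKM in controls, 12612 and 9321 in alcohol, and 10240 and 11847 in alcohol plus losartan. By gene, 7 of the 12 markers were higher in alcohol (58.3%, against 49.4% of all genes). In alcohol plus losartan against control 5 of the 12 were higher (41.7%, against 49.8% of all genes). The 6 endothelial markers summed to between 6.23 and 10.9 FPKM, the 5 epicardial markers to between 13.4 and 19.9 FPKM, the 6 endoderm markers to between 36.7 and 49.5 FPKM, and the 6 pluripotency markers to between 11.99 and 20.3 FPKM. Endothelial, epicardial and endoderm sums were higher in all 4 alcohol-exposed libraries than in both controls. KDR made up most of the endothelial sum, with 4.00 and 3.70 FPKM in controls and 5.18 to 7.70 FPKM in the exposed libraries. By gene, 3 of the 5 tested endothelial markers were lower in alcohol (60%, against 50.6% of all genes). In alcohol plus losartan against control 2 of the 5 were lower (40%, against 50.2%). TBX18 made up most of the epicardial sum, with 9.14 and 6.87 FPKM in controls and 9.92 to 15.0 FPKM in the exposed libraries. ALDH1A2 of the same list went the other way, with 0.38 and 0.45 FPKM in controls and 0.06 to 0.32 FPKM in the exposed libraries. Of the 2 tested epicardial markers, 2 were higher in alcohol (100%, against 49.4% of all genes). Against control, alcohol plus losartan had 1 higher and 1 lower. Of the 3 tested endoderm markers, 2 were higher in each of these comparisons (66.7%, against 49.4% and 49.8%). The part of these shifts in the values of COL14A1, the type IV genes and the type VI genes was not tested.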

How the data were processed

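RNA sequencing of 6 libraries was analysed, grouped by the treatment in the labels. The submitters' processing notes name HISAT2 2.0.4, Bowtie2 2.2.5, RSEM 1.2.12 and hg38. The files deposited by the authors give expected counts by gene (33.9% of those above 0 are not whole numbers), the FPKM and a length. Expected counts were rounded before testing, and genes left out of a library's table were set to 0.

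The main test was the quasi-likelihood F test of edgeR 4.0.16 (R 4.3.3), two-sided, with TMM normalization and a single model of the 6 libraries. It used the filterByExpr filter and adjustment by Benjamini-Hochberg (0.05, 14926 genes). In simulated libraries with 200 changed genes it recovered 95% of log2 changes of 2 and 74% of log2 changes of 1. It made 29 false calls there, and 3 false calls where 0 genes were changed. Alternatives were DESeq2 1.42.0, limma 3.58.1 on log2(FPKM + 1) and log2(FPKM + 0.1), size factors of the DESeq2 type, no filter, at least 10 counts in every library, a replicate block, only the 4 libraries compared, and each library left out in turn. A loess offset for GC content and length (span 0.3, values for 93.6% of genes) and the direction counts without each library were added after seeing the data.

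The collagen genes and all gene lists were chosen with earlier results of these data known. Log2 fold changes with errors are named for COL1A1, COL3A1, COL4A1 and COL14A1 and for collagens with an unadjusted p under 0.05. Members of other lists are named where called, with some of those at an unadjusted p under 0.05. Others of these, such as TAGLN, MYH11, KDR, NPPA and MYL7, are given without a log2 fold change or not named elsewhere. COL12A1, COL16A1, COL18A1, COL21A1, CNN1, MYL7, KDR and TBX18 were named by level after their values were seen. The same holds for HAPLN1, ALDH1A2, PDGFRB, MYH11 and TAGLN. The floors cover counting error only, whereas the SE of a fold change also includes the spread between libraries. Positions and promoter sequences are from RefSeq (GRCh38.p14).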

Additional observations from a re-analysis of the deposited data

How the results depend on the processing

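The directions and calls below are for the collagen genes unless all genes are named. With CPM or a library left out, the ratio of summed levels was 1.11 to 1.15 for alcohol against control. It was 0.819 to 0.985 for alcohol plus losartan against alcohol. For alcohol plus losartan against control it was 0.924 to 1.11, so that its direction changed. Leaving out 1 of 2 libraries moves their mean by less than their SD, so the spread between replicates cannot show these ratios to be stable. Medians are over the 28 to 42 collagen genes that each setting tested. In alcohol against control, the 10 calls over all genes became 68 with DESeq2, 0 and 2 with limma on log2(FPKM + 1) and log2(FPKM + 0.1), 2 without a filter, 26 with at least 10 counts, 48 with the replicate block (with or without the GC and length offset), 3 with only the 4 libraries compared, and 1 to 220 with each library left out. The 1 collagen call became 3 with DESeq2, 0 with either limma fit, without a filter and with the 4 libraries, 2 with at least 10 counts, with the replicate block, the offset and both, and 0 to 3 with a library left out. The median of 0.11 became 0.15 with limma on log2(FPKM + 0.1) and 0.18 without a filter, and 0.10 to 0.23 with a library left out.

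In alcohol plus losartan against alcohol, the 2 calls over all genes became 5 with DESeq2 and with the replicate block, 1 with limma on log2(FPKM + 1), without a filter and with the offset, 0 with at least 10 counts, 4 with the 4 libraries, and 1 to 24 with a library left out, and the collagen median was -0.32 to -0.080. In alcohol plus losartan against control, the 54 calls became 113 with DESeq2, 2 and 3 with limma, 15 without a filter, 136 with the replicate block, 158 with the 4 libraries, 86 with the offset, 201 with block and offset, and 2 to 184 with a library left out. The 1 collagen call became 3 with DESeq2 and with block and offset, 0 with limma and without a filter, 2 with the offset, and 0 to 1 with a library left out, and the median was -0.21 to 0.055.

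Single log2 fold changes of uncalled genes changed sign. In alcohol against control COL1A1 was -0.023 without alcohol replicate 1. In alcohol plus losartan against alcohol COL1A1 was 0.070 without alcohol replicate 1, 0.16 without alcohol plus losartan replicate 2 and 0.064 with the offset, with or without the block, COL4A1 was 0.013 with the offset, with or without the block, and COL14A1 was -0.42 to 0.22 with a library left out, above 0 without alcohol replicate 2. Against control, COL1A1 was -0.057 without control replicate 2 and -0.22 without alcohol plus losartan replicate 1 (-0.22 to 0.27 with a library left out), and COL3A1 was -0.090 and -0.078 without control replicate 2 and alcohol plus losartan replicate 2. The causes were not tested. Same-numbered replicates deviated with correlations of 0.114, 0.0422 and -0.0159 over all genes in the 3 comparisons. Such values cannot show whether same-numbered libraries share a batch, which was not tested. Single genes did move together, as MYL2 was lower in replicate 2 of control (863 FPKM) and of alcohol (821 FPKM). In alcohol plus losartan MYL2 was not lower in replicate 2 (2862 FPKM, against 2478 in replicate 1).

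With 2 libraries a group, differences well above the SE given also missed the adjusted threshold of the main test, among them COL6A1 in alcohol. The marker ACTA2 in alcohol against control had a log2 fold change of -1.04 ± 0.20 with an adjusted p of 0.0797 by edgeR. A gene without a call is therefore not shown to be unchanged, and 10 collagen genes were too low to test.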
